A study of Mus musculus with 6 samples.

Results

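The colony-stimulating factors and IL-6 family cytokines were followed in 4T1 cells, a mouse mammary carcinoma line, as 9 genes chosen by symbol: Csf1, Csf2, Csf3, Lif, Il6, Il11, Il34, Clcf1 and Ctf1. Each matched 1 of the 56691 genes in the table. Cells of 3 libraries received KIRA6, an inhibitor that binds the kinase domain of the endoplasmic reticulum stress sensor IRE1α and lowers its RNase activity, at 1 µmol/L for 4 h. The 3 reference libraries received vehicle for the same 4 h, and no genetic change is labelled in either group. Polyadenylated RNA was sequenced, and the series asks about KIRA6, myeloid-derived suppressor cells and PD-1 therapy. Nothing in the labels ties the libraries to separate cultures, and the p-values cover the spread among these 6 libraries, part of which could be technical.

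Colony-stimulating factors are secreted proteins that make bone marrow progenitors divide and mature into myeloid cells. G-CSF (from Csf3) acts mainly on neutrophils, M-CSF (from Csf1) and IL-34 share a receptor on macrophages, and GM-CSF (from Csf2) acts on both lineages. Cytokines of the IL-6 family assemble receptors around the shared chain gp130, encoded by Il6st, which activates JAK kinases and STAT3. G-CSF secreted by 4T1 tumours is known to expand neutrophil-like cells in the host, while the cultures here held tumour cells without a host.

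An estimated 18216000 to 21352500 fragments were assigned to genes in the KIRA6 libraries, against 16498500 to 18586500 in the vehicle libraries. The depth was recovered from the deposited FPKM, which scales fragments by exonic length and by the fragments assigned to genes. Mitochondrial genes took 2.66% to 3.25% of fragments with KIRA6 and 1.75% to 2.03% with vehicle, and the part of this in any result was not tested. KIRA6 replicate 1 and Vehicle replicate 3 lay apart from the rest of their groups on the second principal component (35.1% of the variance). On the first (56%) they lay between the other libraries of the 2 groups. KIRA6 replicate 1 was at −11 there, against −42 and −48.6, and Vehicle replicate 3 at 10.2, against 47.7 and 43.8. Values are therefore also given without both. The epithelial markers Krt8, Krt18, Krt7, Cdh1 and Epcam were expressed, while Krt5 was at 0 in every library. Of the 7 tested, Epcam, Cldn4 and Krt14 rose with KIRA6 and 4 were not called. Of these 4, Krt18 was lower in every KIRA6 library, at 473.28 to 544.91 FPKM against 574.08 to 631.2 FPKM with vehicle. All 6 T-cell markers were at 0 in every library. The 8 neutrophil markers summed to 0.15 to 0.30 FPKM with KIRA6 and 0 to 0.21 FPKM with vehicle, and Mpo, Elane and Retnlg were at 0. Macrophage markers summed to 3.93 to 4.34 FPKM with KIRA6 and 1.79 to 3.04 FPKM with vehicle, most of it from Cd68, with Adgre1 at 0 and Ptprc at 0.01 FPKM or less. Cd68 passed the test (limma adjusted p = 0.04725), but not under 10 of 18 alternatives, where the adjusted p reached 0.1862 with quantile normalization. Fibroblast markers summed to 1.92 to 3.82 FPKM with KIRA6 and 0.44 to 0.77 FPKM with vehicle, mostly Pdgfra, which rose, with Lum at 0, and endothelial markers to 0.07 FPKM or less. The part of these markers in any result was not tested.

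Csf3 and Lif fell, and none of the other members passed the test in either direction. Csf3 (ENSMUSG00000038067, chromosome 11, 98592089 to 98594455, plus strand, GRCm39) encodes G-CSF. Its level was 3.48, 2.91 and 2.07 FPKM in the KIRA6 libraries, against 13.72, 15.36 and 12.07 FPKM in the vehicle libraries. The groups did not overlap, and every KIRA6 library was below 4 FPKM while every vehicle library was above 12 FPKM. The KIRA6 mean was 20.6% of the vehicle mean, at 2.82 ± 0.709 FPKM and 13.7 ± 1.65 FPKM (SD, n = 3 each). The log2 fold change of FPKM + 0.5 was −2.11 ± 0.20 (SE), with an adjusted p of 0.001322 by limma over all 11778 tested genes and a 95% interval from −2.59 to −1.64. The estimates behind these levels were 58 to 105 fragments per KIRA6 library and 317 to 358 per vehicle library. In bulk RNA, fewer cells making a transcript and less of it per cell cannot be told apart.

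**Figure D1:**
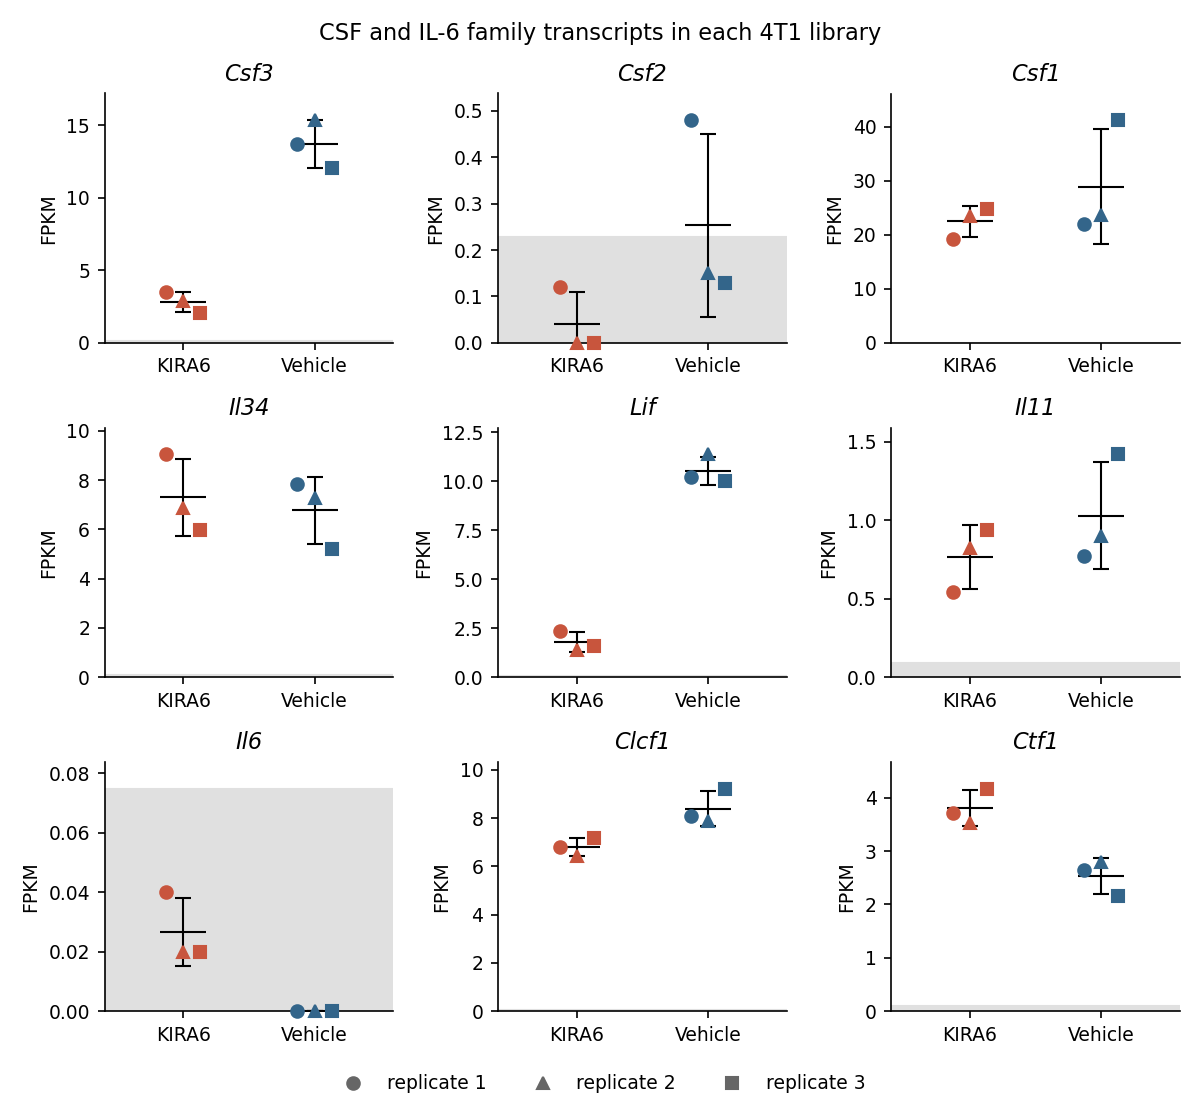
Level in FPKM (vertical axis, from 0) of each of the 9 members in the 3 KIRA6 libraries (red) and the 3 vehicle libraries (blue), with marker shape giving the replicate number, black lines the mean and SD, and grey bands the level of 3 fragments in the shallowest library. The groups lie far apart for Csf3 and Lif, and all points of Il6 and 5 of the 6 points of Csf2 lie inside the grey band.

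Lif (ENSMUSG00000034394, chromosome 11, 4207557 to 4222514, plus strand) encodes leukemia inhibitory factor, which signals through LIFR and gp130. Its level was 2.35, 1.40 and 1.58 FPKM with KIRA6, against 10.19, 11.36 and 10.02 FPKM with vehicle. The groups did not overlap, and the vehicle libraries lay close together, at 10.5 ± 0.730 FPKM, while the KIRA6 libraries averaged 1.78 ± 0.505 FPKM (SD, n = 3 each). The KIRA6 mean was 16.9% of the vehicle mean. The log2 fold change was −2.30 ± 0.19 (SE, limma adjusted p = 0.0009124), with a 95% interval from −2.75 to −1.85. Of the 940 genes called lower, 27 fell further than Lif and 43 fell further than Csf3 on this scale. Without KIRA6 replicate 1 and Vehicle replicate 3 the changes were −2.50 for Lif and −2.34 for Csf3.

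Over all tested genes 23.6% were called, 15.6% higher and 7.98% lower with KIRA6, and their median log2 fold change was 0.16. Among the 7 members that passed the filter, a mean of 0.5 FPKM or more, 2 were called lower and 0 higher, with a median of −0.28. The 2 calls in 7 stand beside 23.6% in either direction and 7.98% in the lower direction. With 7 genes, this cannot tell whether the members differ from all tested genes in how many were called. By limma without adjustment 1 member, Ctf1, had a p below 0.05 in the higher direction, and limma-voom on estimated fragments called 0 higher and 2 lower. Over all tested genes limma-voom called 1907 higher and 940 lower. Without adjustment no count over all tested genes was taken, here or for the lists below, so those counts have no background.

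The remaining colony-stimulating factors showed no called change. Csf1 (chromosome 3, 107648364 to 107667785), which encodes M-CSF, was the most abundant member in every library. It had 19.23, 23.54 and 24.71 FPKM with KIRA6, against 21.99, 23.63 and 41.25 FPKM with vehicle. The groups overlapped, and the highest value belonged to Vehicle replicate 3. The log2 fold change was −0.31 ± 0.26 (SE, limma adjusted p = 0.435), with a 95% interval from −0.92 to 0.31. It was −0.03 without Vehicle replicate 3, and 0.08 without that library and KIRA6 replicate 1.

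Il34 (chromosome 8, 111468461 to 111532556), the other ligand of the M-CSF receptor, had 9.04, 6.87 and 5.97 FPKM with KIRA6, against 7.82, 7.27 and 5.22 FPKM with vehicle. These ranges overlapped across most of their width. The log2 fold change was 0.10 ± 0.22 (SE, limma adjusted p = 0.78), with a 95% interval from −0.41 to 0.61, and its sign changed with the scaling of the libraries.

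Csf2 (chromosome 11, 54138097 to 54140493), which encodes GM-CSF, was near the limit of detection. Its values of 0.12, 0 and 0 FPKM with KIRA6 correspond to 2, 0 and 0 fragments, and its 0.48, 0.15 and 0.13 FPKM with vehicle to 7, 2 and 2 fragments. A count of 0 allows up to 3 fragments, which is 0.176 to 0.227 FPKM for this gene, and only Vehicle replicate 1 lay above that floor. The ratio of summed fragments per depth was 0.163 for KIRA6 over vehicle, with an exact binomial 95% interval from 0.0176 to 0.747 that covers counting error only. An exact two-sided permutation test of the 3 libraries against 3 gave p = 0.1, the smallest it can give. The lncRNA gene Gm12223 overlaps Csf2 on the opposite strand, and the strand setting of the counting is not given in the sources used here.

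Among the IL-6 family members other than Lif, Il11 (chromosome 7, 4775372 to 4785858), whose protein acts through IL11RA and gp130, was low. It had 0.54, 0.82 and 0.94 FPKM with KIRA6, against 0.77, 0.90 and 1.42 FPKM with vehicle. The groups overlapped, and the log2 fold change of −0.26 ± 0.22 (SE, limma adjusted p = 0.4346) became 0.05 without KIRA6 replicate 1 and Vehicle replicate 3. The estimates were 24 to 39 fragments per KIRA6 library and 29 to 55 per vehicle library, and the 95% interval ran from −0.79 to 0.26.

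Clcf1 (chromosome 19, 4264292 to 4273544), whose protein binds the CNTF receptor, had 6.82, 6.43 and 7.16 FPKM with KIRA6, against 8.08, 7.88 and 9.22 FPKM with vehicle. Every KIRA6 library was below every vehicle library, but the log2 fold change was small, at −0.28 ± 0.13 (SE), and was not called by limma (adjusted p = 0.1719). Ctf1 (chromosome 7, 127311908 to 127317364) encodes cardiotrophin-1, which like LIF binds LIFR and gp130. It had 3.72, 3.52 and 4.17 FPKM with KIRA6, against 2.65, 2.79 and 2.15 FPKM with vehicle. These groups did not overlap either, and the log2 fold change of 0.51 ± 0.15 (SE) missed the threshold by limma (adjusted p = 0.05511). Its 95% interval ran from 0.14 to 0.88, and the adjusted p was 0.04248 without KIRA6 replicate 1 and Vehicle replicate 3. The change was 0.22 with quantile normalization (limma adjusted p = 0.4556) and 0.35 with median-ratio scaling (limma adjusted p = 0.1424). Leaving out 1 library gave limma adjusted p of 0.08264 to 0.1517. Of the 7 tested members, groups did not overlap for 3 in the lower direction (Csf3, Lif and Clcf1) and 1 in the higher direction (Ctf1). Over all tested genes that share was 41.8%, with 14.1% lower and 27.7% higher.

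Il6 (chromosome 5, 30218112 to 30224979) was barely present. It had 0.04, 0.02 and 0.02 FPKM with KIRA6, which is 2, 1 and 1 fragments, and was at 0 in all 3 vehicle libraries. All 6 values lay under the floor of 3 fragments, 0.0579 to 0.0749 FPKM for this gene, so no difference was detectable at this depth.

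**Figure D2:**
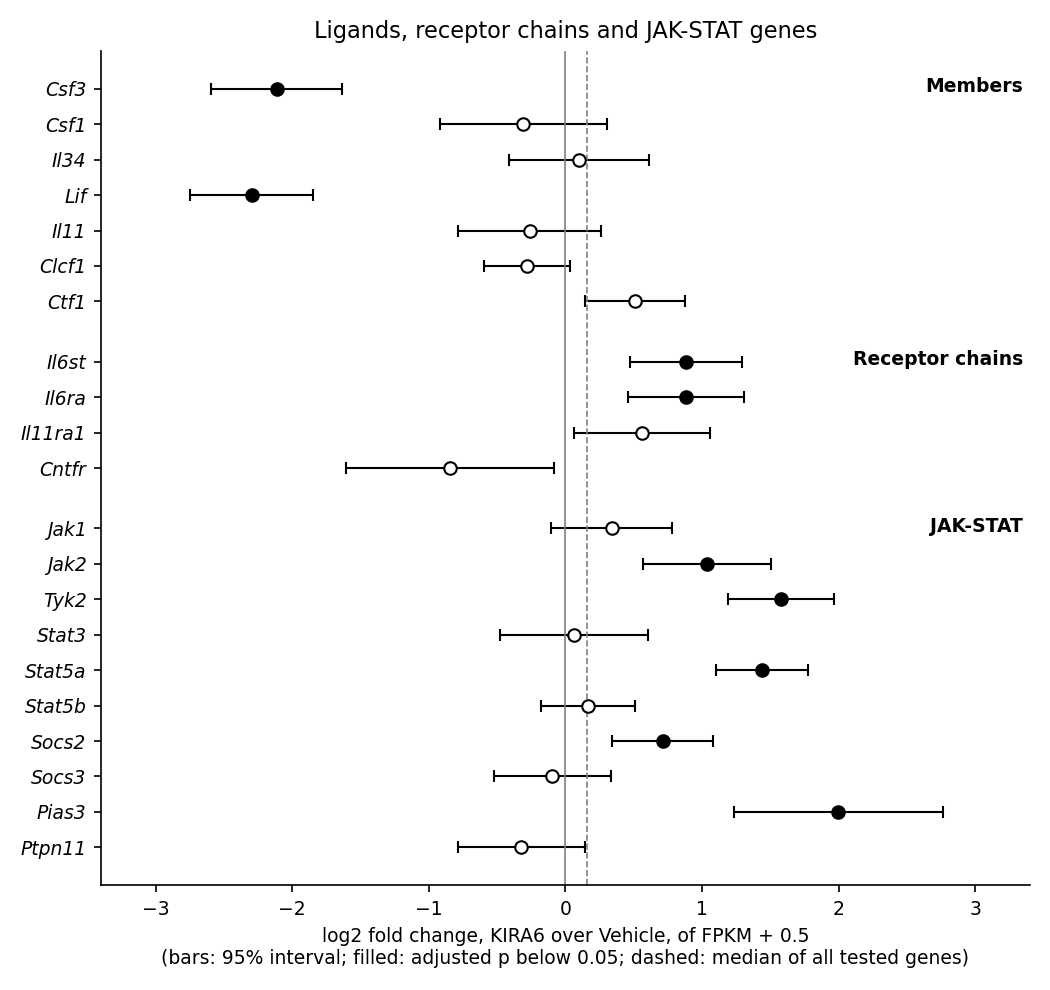
Log2 fold change of FPKM + 0.5, KIRA6 over vehicle (horizontal axis), for the 7 tested members, 4 receptor chains and 10 JAK-STAT genes, with 95% intervals from limma, filled points for an adjusted p below 0.05 and a dashed line at the median of all tested genes, 0.16. Csf3 and Lif lie near −2 while the receptor chains Il6st and Il6ra lie near 0.88.

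The order of the members' levels, which FPKM gives per length, differed between the groups. With KIRA6 it ran Csf1, Il34, Clcf1, Ctf1, Csf3, Lif, Il11, Csf2 and Il6. The ranges of Il34 and Clcf1 overlapped there, as did those of Csf3 and Lif and those of Csf2 and Il6. With vehicle it ran Csf1, Csf3, Lif, Clcf1, Il34, Ctf1, Il11, Csf2 and Il6, and no neighbours in this order had overlapping ranges. Csf3 stood above 28.1% of tested genes with KIRA6, against 71.1% with vehicle. For Lif the share was 18.7% with KIRA6 and 65.1% with vehicle, and for Csf1 it was 81.5% with KIRA6 and 85.0% with vehicle.

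Summed over the 9 members, the level was 45.34, 45.51 and 46.62 FPKM in the KIRA6 libraries, against 65.70, 69.34 and 81.48 FPKM in the vehicle libraries. Csf3 and Lif together made up 12.9%, 9.5% and 7.8% of that sum with KIRA6, against 36.4%, 38.5% and 27.1% with vehicle. Ratios within a library do not depend on how libraries are scaled to each other. The level of Csf3 over that of Csf1 was 0.181, 0.124 and 0.0838 with KIRA6, against 0.624, 0.650 and 0.293 with vehicle, so it was lower in every KIRA6 library, although Vehicle replicate 3 stood well below the other vehicle libraries. Lif over Ctf1, ligands of the same receptor, was 0.632, 0.398 and 0.379 with KIRA6, against 3.85, 4.07 and 4.66 with vehicle. Csf3 over Lif differed little by comparison, at 1.48, 2.08 and 1.31 with KIRA6 and 1.35, 1.35 and 1.21 with vehicle.

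**Figure D3:**
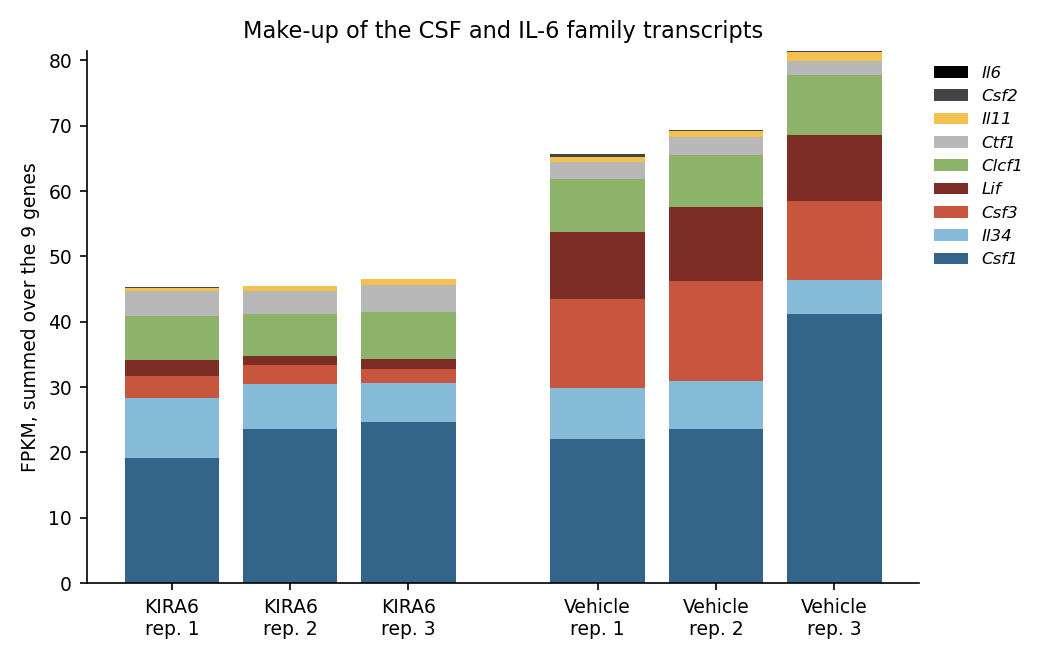
FPKM of the 9 members stacked for each library (vertical axis, from 0), with the 3 KIRA6 libraries on the left and the 3 vehicle libraries on the right. The Csf3 and Lif segments shrink to 12.9% or less of the column in the KIRA6 libraries, while Csf1 is the largest segment in all 6.

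Many cytokine mRNAs are short-lived because of AU-rich elements, repeats of the pentamer AUUUA in the 3′ UTR that recruit decay or stabilizing proteins. The densest stretch of at most 30 bases in the 3′ UTR is printed for the members that fell and for 3 relatives that were not called, with ATTTA in capitals and T for U.
Csf3: tttATTTAtctctATTTAatATTTAt
Lif: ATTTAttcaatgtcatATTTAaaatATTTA
Csf2: aatATTTATTTATTTATTTATTTAt
Il11: cttATTTATTTATTTAt
Clcf1: aatATTTATTTAtttggagatgttATTTAt
The sequences and coordinates come from GENCODE M21 on GRCm38, and the longest annotated 3′ UTR of a coding transcript was used. The Csf3 stretch lies at chr11:98702989-98703014 and the Lif stretch at chr11:4272414-4272443, both on the plus strand. The Csf2 stretch is at chr11:54247328-54247352 and that of Il11 at chr7:4773505-4773521, both on the minus strand, and that of Clcf1 at chr19:4223403-4223432 on the plus strand. In the Csf2 stretch 5 pentamers overlap in an unbroken run, and in the Il11 stretch 3 do, while the 3 of Csf3 and the 3 of Lif stand apart from each other.

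The pentamer was searched on the transcribed strand, with overlapping matches counted. The Csf3 3′ UTR of 669 bases held 6, or 8.97 per kb, and 98.9% of tested genes had a lower density. The Lif 3′ UTR of 3180 bases held 7, or 2.2 per kb, a density above 68.1% of tested genes. The 2 members that fell differed in pentamer density, while the untested Csf2 and the uncalled Il11 had 28.4 and 8.38 per kb. The 4 other members had 6.0 (Il6), 4.34 (Clcf1), 1.89 (Csf1) and 1.65 (Il34) per kb, and Ctf1 had none. Of the longer form TATTTAT, Csf3 held 2 and Lif held 5. Csf2 held 9, Il11 6, Clcf1 4, Csf1 and Il6 1 each, and Il34 and Ctf1 0. The longer form was in the 3′ UTR of 30.9% of 10235 tested genes with at least 30 bases of 3′ UTR. Of those that held it 8.98% were called lower and 14.6% higher, against 8.29% lower and 18.0% higher among those without it. These shares are given side by side, and their difference was not tested.

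**Figure D4:**
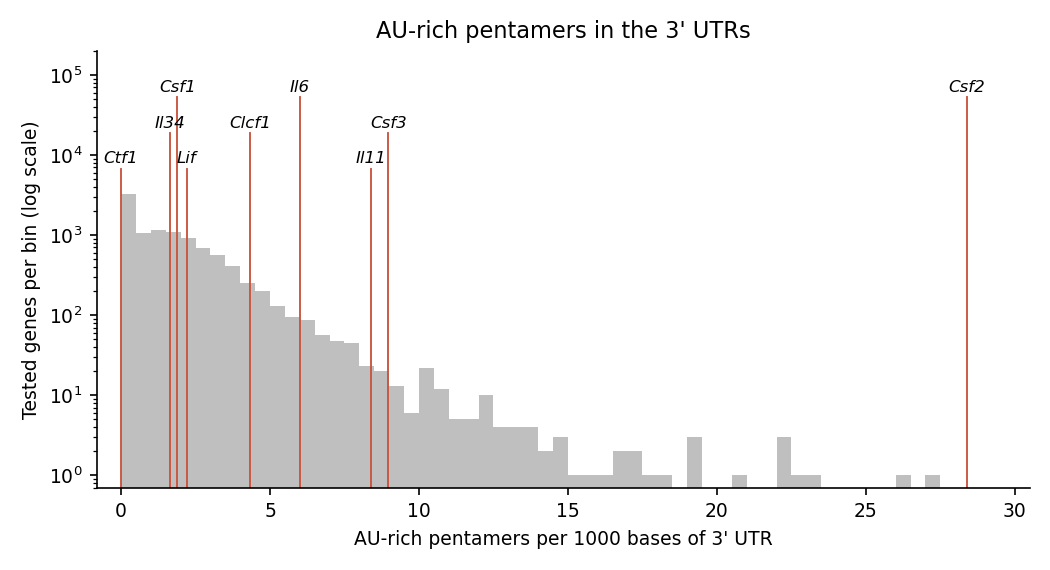
Number of tested genes (vertical axis, log scale) by AU-rich pentamers per kb of 3′ UTR (horizontal axis, bins of 0.5), with red lines at the 9 members. Csf2 lies at 28.4, Csf3 and Il11 lie at 8.97 and 8.38, and Lif lies at 2.2, inside the bulk of tested genes.

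RefSeq promoters, 250 bases before to 50 after the start site on GRCm38.p6, matched 6 of the 9 members. That of Lif, which fell, and that of Csf1, which was not called, are printed with matches to the AP-1 motif TGANTCA, the NF-kB motif and the C/EBP motif TTNNGNAAT in capitals, searched on both strands.
Lif: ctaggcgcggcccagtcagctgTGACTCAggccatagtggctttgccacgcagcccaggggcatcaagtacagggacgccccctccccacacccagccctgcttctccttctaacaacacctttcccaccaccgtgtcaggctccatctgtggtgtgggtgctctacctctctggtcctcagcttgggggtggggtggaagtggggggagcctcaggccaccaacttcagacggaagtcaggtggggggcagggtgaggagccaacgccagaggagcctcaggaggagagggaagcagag
Csf1: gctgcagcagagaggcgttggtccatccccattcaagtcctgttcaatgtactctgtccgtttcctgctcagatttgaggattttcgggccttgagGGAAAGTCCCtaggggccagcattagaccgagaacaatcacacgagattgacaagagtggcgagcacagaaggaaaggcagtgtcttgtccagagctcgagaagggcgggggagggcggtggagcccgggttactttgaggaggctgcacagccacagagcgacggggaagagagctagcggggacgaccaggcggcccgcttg
They lie at chr11:4257318-4257617 on the plus strand and chr3:107760420-107760719 on the minus strand. The Lif window held 1 AP-1 match, TGACTCA, at position −228 from the start site, and 0 matches of the others. The Csf1 window held 1 NF-kB match, GGAAAGTCCC, which is the motif read on the other strand, at position −154. Of all 32851 promoters 7.81% held the AP-1 motif, 5.56% the NF-kB motif and 11.5% the C/EBP motif. Among promoters of tested genes the AP-1 motif was in 6.6% of those called lower, 5.97% of those called higher and 4.83% of those not called. In the same order the shares were 8.58%, 6.79% and 6.48% for the C/EBP motif. They were 6.27%, 6.07% and 6.4% for the NF-kB motif, and the differences were not tested. The window of Il6 held 1 match of each of the 3 motifs, 1 of the 2 windows of Il11 held an AP-1 match, and those of Csf2 and Ctf1 held none of the 3. A match describes these letters and is not a bound site.

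Among receptor chains for these cytokines, the gp130 gene Il6st and the IL-6 receptor gene Il6ra rose. Il6st had 13.87, 12.67 and 18.43 FPKM with KIRA6, against 7.36, 8.49 and 7.59 FPKM with vehicle, and the groups did not overlap. Its log2 fold change was 0.88 ± 0.17 (SE, limma adjusted p = 0.01359), and the call ended without Vehicle replicate 1 (adjusted p = 0.05281). Il6ra had 2.28, 2.27 and 2.65 FPKM with KIRA6, against 0.90, 0.93 and 1.43 FPKM with vehicle, a log2 fold change of 0.88 ± 0.18 (SE, limma adjusted p = 0.01513). That call ended with quantile normalization (0.06681) and without any 1 of KIRA6 replicate 2 (0.06185), KIRA6 replicate 3 (0.05973), Vehicle replicate 1 (0.0569) or Vehicle replicate 2 (0.0706).

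Of the 11 receptor genes 4 were tested, with a median log2 fold change of 0.72 beside 0.16 for all tested genes. Of these 2 rose and 0 fell, beside 15.6% higher and 7.98% lower over all tested genes. By limma without adjustment 3 had a p below 0.05 in the higher direction and 1 in the lower, and limma-voom called 2 higher and 0 lower. The 15.6% and 7.98% are for adjusted p and are no background for the counts without adjustment. The uncalled pair went opposite ways, with Il11ra1 at a log2 fold change of 0.56 (limma adjusted p = 0.0998) and the CNTF receptor gene Cntfr at −0.85 (limma adjusted p = 0.1025). Il11ra1 was called higher without Vehicle replicate 3 (0.03221), without that library and KIRA6 replicate 1 (0.00697) and with array weights (0.00052). Cntfr was called lower with quantile normalization (0.03368), array weights (0.008741) and the replicate block (0.01173). The list thus had 0 to 3 genes called higher and 0 or 1 lower across the alternatives. Over all tested genes the counts ran from 817 to 4743 higher and from 394 to 2810 lower. Chains on which several members depend were almost absent in both groups. Lifr had at most 0.03 FPKM with KIRA6 and 0.02 FPKM with vehicle, so the cells that transcribed Lif held almost no RNA for its own receptor chain. Csf1r stayed at 0.09 FPKM or less and Csf3r at 0.01 FPKM or less, and Csf2ra was at 0 in every library. Osmr, the receptor of oncostatin M, which is not a member, was below the filter. It had 0.36, 0.58 and 0.73 FPKM with KIRA6, against 0.19, 0.18 and 0.23 FPKM with vehicle. The β chains Csf2rb and Csf2rb2, near-identical copies whose reads cannot be assigned with certainty, had 0.05 to 0.10 FPKM with KIRA6, against 0.02 FPKM or less with vehicle. Csf2rb2 was called higher when the filter was dropped (limma adjusted p = 0.02585).

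Of 13 JAK-STAT genes below these receptors 11 were tested, with a median log2 fold change of 0.71. Of these 6 rose and 0 fell, beside 15.6% higher and 7.98% lower over all tested genes. Limma without adjustment gave 0 with a p below 0.05 in the lower direction, as did limma-voom at an adjusted p below 0.05. The count without adjustment has no background over all tested genes. Tyk2, a JAK family kinase, had 5.03, 5.03 and 5.85 FPKM with KIRA6, against 1.18, 1.47 and 1.70 FPKM with vehicle (limma adjusted p = 0.001654). Stat5a, a factor activated by GM-CSF, had 3.34, 3.09 and 3.74 FPKM with KIRA6, against 0.98, 0.94 and 0.88 FPKM with vehicle (limma adjusted p = 0.001474). Pias3, an inhibitor of STAT3, the kinase gene Jak2 and Socs2, a feedback inhibitor, also rose, with log2 fold changes of 2.0, 1.04 and 0.71. The call for Jak2 ended without KIRA6 replicate 2 (0.06254) or Vehicle replicate 2 (0.05715). That for Socs2 ended with quantile normalization (0.1801) and without any 1 of KIRA6 replicate 2, KIRA6 replicate 3, Vehicle replicate 1 or Vehicle replicate 2 (0.06447 to 0.08661). The count of higher genes was 3 without KIRA6 replicate 2 or Vehicle replicate 2, and 4 with quantile normalization, without KIRA6 replicate 3 or without Vehicle replicate 1. Over all tested genes 817 to 1132 were called higher in these settings, against 1843 in the reported fit. With array weights, and without both KIRA6 replicate 1 and Vehicle replicate 3, 7 were called higher and 1 lower. Of all 11778 tested genes 4743 were higher and 2810 lower with array weights, and 4227 higher and 2383 lower without both libraries.

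Stat3 itself, the main factor below gp130, had 3.43, 4.25 and 5.76 FPKM with KIRA6, against 3.63, 3.79 and 5.29 FPKM with vehicle (limma adjusted p = 0.8755). Socs3, the feedback inhibitor that STAT3 induces and that binds gp130 and the G-CSF receptor, had 4.31, 3.27 and 4.71 FPKM with KIRA6, against 4.22, 3.92 and 5.03 FPKM with vehicle (limma adjusted p = 0.7444). The groups overlapped for both, with 95% intervals from −0.48 to 0.61 for Stat3 and −0.53 to 0.33 for Socs3. Socs1, below the filter, had 0.02, 0.06 and 0.09 FPKM with KIRA6, against 0.45, 0.42 and 0.80 FPKM with vehicle. It was called lower when the filter was dropped (limma adjusted p = 0.0246).

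Of 10 other growth factors for blood cells 4 were tested. Of these 2 rose and 1 fell, beside 15.6% higher and 7.98% lower over all tested genes. Il15, a growth factor of lymphocytes, had 6.36, 5.41 and 4.37 FPKM with KIRA6, against 0.87, 0.99 and 0.55 FPKM with vehicle, a log2 fold change of 2.18 ± 0.21 (SE, limma adjusted p = 0.001322). Il7, which sustains lymphocyte precursors, had 2.21, 2.40 and 2.86 FPKM with KIRA6, against 0.58, 0.82 and 0.56 FPKM with vehicle, a log2 fold change of 1.38 ± 0.17 (SE, limma adjusted p = 0.002696). Tslp, an epithelial cytokine acting on dendritic cells, fell by 1.47 on the log2 scale (limma adjusted p = 0.003042). Kitl, which encodes stem cell factor, had 2.12 to 3.62 FPKM with KIRA6 and 2.84 to 4.00 FPKM with vehicle (limma adjusted p = 0.4851). The growth factor genes of lymphocytes Il15 and Il7 thus moved opposite to Csf3 and Lif within the same libraries.

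Of 19 genes for factors that bind cytokine promoters 16 were tested. Of these 2 rose and 3 fell, beside 15.6% higher and 7.98% lower over all tested genes. The AP-1 subunits Fosl1, Jun and Fosb fell, with log2 fold changes of −2.98, −1.19 and −1.26, and the AP-1 subunits Junb and Fosl2 rose, with 0.82 and 0.97. Fosl1 had 1.18, 1.49 and 1.07 FPKM with KIRA6, against 10.59, 9.21 and 23.50 FPKM with vehicle, without overlap. The call for Fosb ended without KIRA6 replicate 2 (0.05908) or KIRA6 replicate 3 (0.0643). That for Fosl2 ended with no filter, median-ratio scaling, rescaling to TPM, and without any 1 of KIRA6 replicate 2, KIRA6 replicate 3, Vehicle replicate 1 or Vehicle replicate 2, with adjusted p of 0.06986 to 0.1262. The NF-kB genes Nfkb1 and Rela were not called, at limma adjusted p of 0.6813 and 0.3368. Cebpb had 4.61, 13.65 and 9.88 FPKM with KIRA6, against 2.19, 1.65 and 6.51 FPKM with vehicle (limma adjusted p = 0.1087), and its groups overlapped. Without KIRA6 replicate 1 and Vehicle replicate 3, 10 members of this list were called higher, and 5 without Vehicle replicate 3 alone. Over all 11778 tested genes 4227 and 2064 were higher in these settings, in that order, against 1843 in the reported fit.

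All 12 genes for proteins that bind AU-rich or stem-loop elements in cytokine mRNAs were tested. Of these 0 rose and 3 fell, beside 15.6% higher and 7.98% lower over all tested genes. Limma without adjustment gave 1 with a p below 0.05 in the higher direction, and limma-voom called 0 higher. That count without adjustment has no background over all tested genes. Arid5a, which stabilizes Il6 mRNA, had 1.39, 1.15 and 0.83 FPKM with KIRA6, against 2.12, 2.19 and 2.22 FPKM with vehicle (limma adjusted p = 0.02447). Elavl1, which encodes the stabilizing protein HuR, had 11.45, 11.68 and 13.69 FPKM with KIRA6, against 17.56, 18.35 and 22.14 FPKM with vehicle (limma adjusted p = 0.02488). Tial1, a translational repressor, fell by 0.50 on the log2 scale (limma adjusted p = 0.04027), a call that ended with no filter (0.06764), with rescaling to TPM (0.06501) and without any 1 library (0.05536 to 0.1512). Without single libraries, 0 members were called without KIRA6 replicate 2, Vehicle replicate 1 or Vehicle replicate 2, and 1 without KIRA6 replicate 1 or KIRA6 replicate 3. Over all tested genes 1211 to 2408 were called in these settings, against 2783 in the reported fit. Without both KIRA6 replicate 1 and Vehicle replicate 3, 5 members were called higher and 3 lower. In that setting 4227 of all 11778 tested genes were called higher and 2383 lower. The decay factors Zfp36 and Zc3h12a were not called, at limma adjusted p of 0.7701 and 0.8675.

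The genes whose profile over the 6 libraries was most like that of Csf3 were named by the root mean square difference of centred log2 values among the 10551 genes whose mean reached 1 FPKM. They were Phlda2, an imprinted growth regulator, with a difference of 0.12, the ribosome biogenesis genes Rrp9 and Rrs1 with 0.12 and 0.17, the endoplasmic reticulum isomerase gene Fkbp11 with 0.16, and the sialyltransferase gene St3gal4 with 0.17. Lif was also close, at 0.19, with 9 genes closer. The values were centred over all 6 libraries, so this closeness partly restates falls of similar size. For Lif the nearest were Apln, which encodes the peptide apelin, with 0.14, Fkbp11 with 0.15, Phlda2 and Evi2a with 0.16, and the stromelysin gene Mmp3 with 0.19. Fkbp11 and Phlda2 stood in both lists of 5.

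Within 50 kb of Csf3, on GRCm39, 3 neighbours were tested, a window chosen after values were seen. Med24, a Mediator subunit gene whose end lies 962 bases from that of Csf3, had a mean of 9.42 FPKM with KIRA6 and 24.7 FPKM with vehicle, a log2 fold change of −1.34 (limma adjusted p = 0.005865). Psmd3, a proteasome subunit gene on the other side, had 29.5 FPKM with KIRA6 and 47.0 FPKM with vehicle (limma adjusted p = 0.01097), while Thra, a thyroid hormone receptor gene, had 9.77 FPKM with KIRA6 and 4.41 FPKM with vehicle (limma adjusted p = 0.02451). The neighbours of Csf3 thus moved in both directions. Near Lif, Castor1 and Tbc1d10a were not called (limma adjusted p = 0.06611 and 0.4549), and its relative Osm had 0.04, 0 and 0 FPKM with KIRA6 and was at 0 with vehicle.

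**Figure D5:**
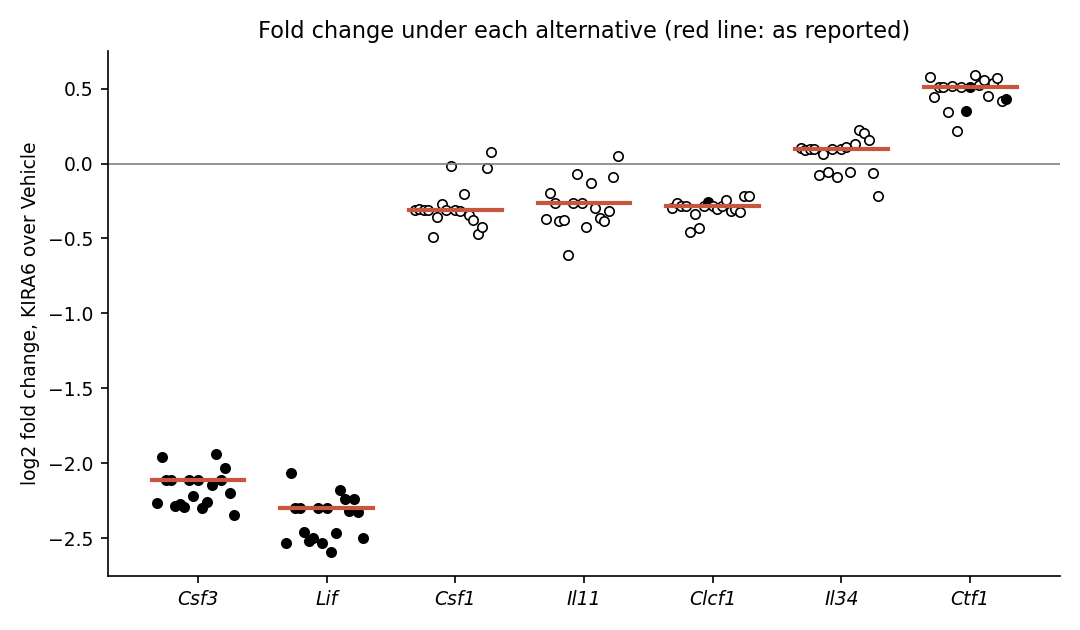
Log2 fold change, KIRA6 over vehicle (vertical axis), of the 7 tested members under each alternative setting (points, filled for an adjusted p below 0.05), beside the reported value (red line). All points of Csf3 and Lif are filled and lie at −1.94 or lower, while those of Csf1, Il11 and Il34 lie on both sides of 0.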

How the data were processed

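The authors deposited FPKM with 2 decimals for each gene and library, with exonic length and GRCm39 coordinates. HISAT2 2.2.1, cutadapt 1.9.1, DESeq2 1.34.0 and HTSeq 0.6.1 were used, per the submitters' processing notes. Their settings were not stated in the sources available. Libraries were dUTP strand-specific, per the labels' protocols.

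The depth was recovered from genes of at most 400 bases, where 1 fragment is a fixed step: 100% of the checked values came within 0.1 fragment of a whole number. The floor was 3 fragments, for counting error only. Log2(FPKM + 0.5) was fitted with limma 3.58.1 (R 4.3.3), with trend and robust empirical Bayes, on the 11778 genes whose mean reached 0.5 FPKM, two-sided, with Benjamini-Hochberg adjustment, calling adjusted p below 0.05. The steps were tested on simulated data.

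The members and lists were chosen with earlier results of these data known. Named genes were the members, called list genes, 10 fixed pathway genes and the 5 nearest profiles of each called member. Some list genes are counted in their lists but not reported here. Genes beyond these were chosen after their values were seen. Motifs and neighbours were searched with Python 3.11.15. Alternatives changed the pseudocount, filter, scaling, model and libraries used.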

Additional observations from a re-analysis of the deposited data

How the results depend on the processing

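The calls for Csf3 and Lif held under all 18 alternatives, with log2 fold changes of −2.34 to −1.94 and −2.59 to −2.07. Of the genes tested, 2783 were called, against 4423 with a replicate block, 7553 with array weights and 6610 without Vehicle replicate 3 and KIRA6 replicate 1, and 1211 (without KIRA6 replicate 2) to 3392 (without Vehicle replicate 3) when 1 library was left out. The count was 1554 without KIRA6 replicate 3, 1622 without Vehicle replicate 1 and 1268 without Vehicle replicate 2. Deviations from the group mean correlated at 0.762, −0.469 and 0.738 between same-numbered libraries. With 3 libraries per group, these correlations cannot decide whether the numbers pair the samples, and the reported fit used no pairing. The number of members called higher was 1, Ctf1, with the replicate block (log2 fold change 0.51, adjusted p = 0.04667), with array weights (0.35) and without both libraries that lay apart (0.43), and 0 when 1 library was left out. Clcf1 was called lower with array weights (−0.26). Among the members, signs turned for Csf1, Il11 and Il34, none of them called. Csf1 was at 0.0797 and Il11 at 0.0482 without both libraries that lay apart, and leaving out 1 library gave −0.47 to −0.03 and −0.39 to −0.09. Il34 was at −0.0765 with median-ratio scaling, −0.0583 with quantile normalization, −0.0868 with array weights and −0.22 without both libraries, and at −0.0641 to 0.22 with 1 library left out. The causes were not tested. The median of all tested genes was −0.0084 with median-ratio scaling, in place of 0.16, and 47.4% of calls were higher, in place of 66.2%. Il11 has no value with the filter at 1 FPKM. Array weights were estimated gene by gene because the default estimate did not converge. Low depth limits Csf2 and Il6, which had 13 and 4 fragments in all 6 libraries.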
